A study of Homo sapiens with 4 samples.

Results

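Estrogen acts on luminal breast cells mainly through the estrogen receptor alpha, a transcription factor encoded by ESR1 that binds DNA with pioneer factors such as FOXA1 and GATA3. Its binding raises the transcription of a group of genes that serve as readouts of estrogen action in breast tumours and cell lines, among them the trefoil factor gene TFF1 and the receptor cofactor gene GREB1. The group described here holds 32 such genes, chosen by name from a fixed list of symbols, and all 32 had a row among the 20515 genes of the table. The list was chosen with earlier results of these data known, so the group as a whole was not tested. They code for secreted proteins, receptors and signalling proteins, channels and enzymes, folding factors, and regulators of transcription. The labels name no estrogen or antiestrogen treatment, and the sources used here do not state the hormone content of the medium. "Estrogen-induced" is therefore background knowledge about the genes and not a measurement.

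The RNA came from T47D, a human breast cancer cell line of luminal type known for its estrogen and progesterone receptors. There were 2 libraries of cells treated with baicalein, a flavonoid of the skullcap root, and 2 libraries of control cells given no treatment. Dose, duration and vehicle of the treatment were not stated in the sources used here. Poly(A) RNA was sequenced, and total counts per library were between 38597207 and 56732569. The labels do not say whether replicate libraries came from separate cultures. The p-values therefore measure only the spread between these libraries, which may be technical. The keratin genes KRT8, KRT18 and KRT19 and EPCAM, markers of luminal epithelium, were high in all libraries, between 157 CPM (EPCAM, control 2) and 5519 CPM (KRT8, control 2). Of 6 such luminal markers 3 fell and 2 rose, and EPCAM did not pass. Across all tested genes 37.6% fell and 37.4% rose, and the markers were not tested as a set. KRT8 averaged 2223 ± 63.8 CPM in baicalein libraries and 5163 ± 503 CPM in controls (SD, n = 2 libraries each), and KRT18 and KRT19 fell as well. CDH1, the gene of E-cadherin, rose, with 1068 ± 15.2 CPM in baicalein libraries and 555 ± 14.0 CPM in controls, as did the epithelial transcription factor gene ELF3, with 45.7 ± 1.43 and 20.6 ± 1.07 CPM in baicalein and control libraries. CPM are counts relative to library size scaled by TMM factors, which adjust for library composition. Of 6 basal epithelial markers 4 had a row (KRT5 and KRT14 had none), with sums of 26.4 and 27.5 CPM in baicalein 1 and 2 and 45.5 and 46.1 CPM in control 1 and 2. Among them TP63 (log2 fold change -3.89, SE 0.21), MYLK (-1.39, SE 0.10) and ACTA2 (-0.50, SE 0.06) fell and KRT17 (2.29, SE 0.36) rose. Of 6 leukocyte markers 3 had a row, as did 0 of 4 endothelial and 3 of 6 fibroblast markers. The leukocyte markers summed to 0.713 and 0.752 CPM in baicalein libraries 1 and 2, and to 1.48 and 1.72 CPM in control libraries 1 and 2. The fibroblast markers, nearly all COL1A1, summed to 151 and 141 CPM in baicalein 1 and 2 and to 90.4 and 100.7 CPM in control 1 and 2, and the part of these markers in the results was not tested. In bulk RNA, fewer cells of a kind and less RNA per cell cannot be told apart.

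Baicalein-treated cells had lower levels of most estrogen-induced genes. Of the 32 genes, 26 fell, 4 rose and 2 did not pass the test (edgeR's quasi-likelihood test, Benjamini-Hochberg adjusted p under 0.05 over all 18369 tested genes). All 32 passed the filter on low counts, and the lowest count of any of them in a library was 11. Much of the transcriptome differed between baicalein and control libraries. Across all tested genes 37.6% fell and 37.4% rose, or 41.9% and 39.2% of the protein-coding ones. The median log2 fold change of the 32 genes, baicalein over control, was -1.28, against 0.0017 for all tested genes. Both medians depend on the scaling, and with scaling by library totals they were -1.38 and -0.10. At least 2-fold falls were found in 18 of the 32, against 15.2% of all tested genes, and an at least 2-fold rise in 1, against 12.2% of all tested genes. A test against a 1.5-fold change called 22 of the 32 lower and 4 higher, where 19.5% and 16.8% of all tested genes were called. Both baicalein libraries lay below both controls for 27 of the 32 genes and above them for 4, against 43.5% and 43.4% of all tested genes, and the groups overlapped for 1. The 32 genes together took 0.414% of all counts in each baicalein library, and 0.829% and 0.839% in control 1 and 2.

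**Figure D1:**
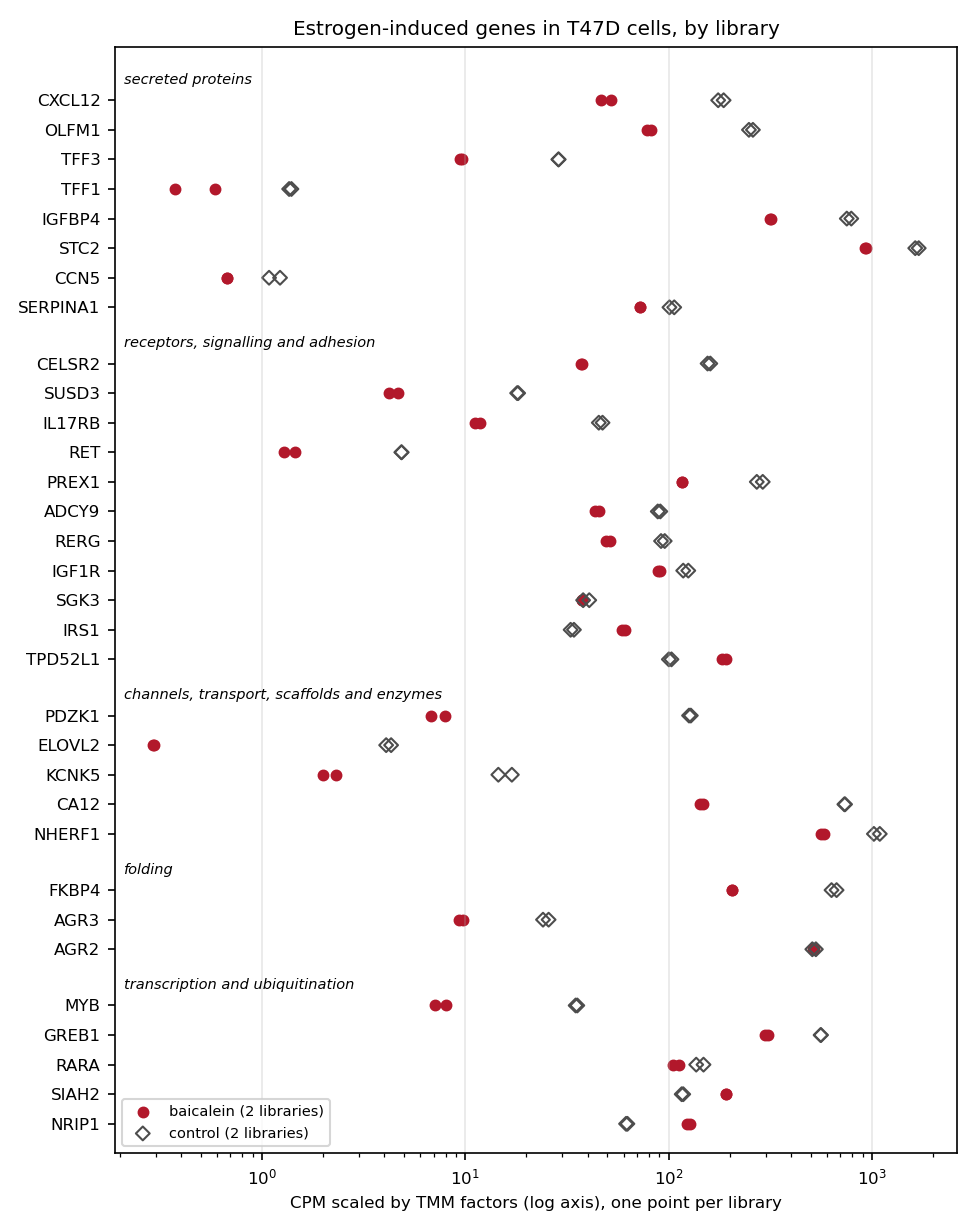
CPM scaled by TMM factors (log axis) of the 32 estrogen-induced genes, ordered by role, with 1 point per library; filled circles are the 2 baicalein libraries and open diamonds the 2 control libraries. PDZK1, ELOVL2 and KCNK5 show the widest gaps, AGR2 and SGK3 lie on top of their controls, and IRS1, TPD52L1, SIAH2 and NRIP1 lie to the right of theirs.

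Promoter sequences are shown for the genes with the largest falls, for the neighbours AGR3 and AGR2, which differed in response, and for NRIP1, which rose. Each is the stretch of 250 bases before the RefSeq transcription start on GRCh38.p14, read 5′ to 3′ on the gene's strand, with capitals for each match to the core of the estrogen response element, GGTCA or its reverse complement TGACC.
PDZK1 promoter (chr1:145707401-145707650, minus strand): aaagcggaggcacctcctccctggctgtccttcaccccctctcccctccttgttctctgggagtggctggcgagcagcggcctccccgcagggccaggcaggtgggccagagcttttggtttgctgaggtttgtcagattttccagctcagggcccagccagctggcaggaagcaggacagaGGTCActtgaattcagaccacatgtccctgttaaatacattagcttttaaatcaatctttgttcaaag
ELOVL2 promoter (chr6:11044306-11044555, minus strand): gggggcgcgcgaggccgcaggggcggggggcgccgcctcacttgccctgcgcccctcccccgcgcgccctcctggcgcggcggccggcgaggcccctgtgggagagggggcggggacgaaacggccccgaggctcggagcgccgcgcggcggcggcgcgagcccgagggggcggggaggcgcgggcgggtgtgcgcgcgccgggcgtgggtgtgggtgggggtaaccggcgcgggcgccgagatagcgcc
KCNK5 promoter (chr6:39229476-39229725, minus strand): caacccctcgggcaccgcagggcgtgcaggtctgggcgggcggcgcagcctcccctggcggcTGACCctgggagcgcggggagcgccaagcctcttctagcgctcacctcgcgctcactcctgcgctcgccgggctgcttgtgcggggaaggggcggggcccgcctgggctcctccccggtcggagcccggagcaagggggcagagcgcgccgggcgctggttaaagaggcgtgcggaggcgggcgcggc
CA12 promoter (chr15:63381847-63382096, minus strand): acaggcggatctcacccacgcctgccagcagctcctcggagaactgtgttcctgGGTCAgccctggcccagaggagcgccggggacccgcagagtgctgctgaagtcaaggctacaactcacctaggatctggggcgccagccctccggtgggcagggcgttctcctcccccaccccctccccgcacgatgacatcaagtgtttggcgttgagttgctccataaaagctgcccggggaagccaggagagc
AGR3 promoter (chr7:16881984-16882233, minus strand): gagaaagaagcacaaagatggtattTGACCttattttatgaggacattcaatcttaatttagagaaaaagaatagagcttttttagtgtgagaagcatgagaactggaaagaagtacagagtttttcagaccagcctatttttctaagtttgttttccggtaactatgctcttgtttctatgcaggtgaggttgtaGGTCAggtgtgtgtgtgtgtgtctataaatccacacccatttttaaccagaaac
AGR2 promoter (chr7:16805000-16805249, minus strand): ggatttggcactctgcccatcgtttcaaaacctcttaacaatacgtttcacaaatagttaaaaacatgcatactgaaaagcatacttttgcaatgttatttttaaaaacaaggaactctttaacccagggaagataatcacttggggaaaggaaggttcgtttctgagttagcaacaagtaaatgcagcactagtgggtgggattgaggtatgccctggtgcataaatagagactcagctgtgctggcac
NRIP1 promoter (chr21:15065937-15066186, minus strand): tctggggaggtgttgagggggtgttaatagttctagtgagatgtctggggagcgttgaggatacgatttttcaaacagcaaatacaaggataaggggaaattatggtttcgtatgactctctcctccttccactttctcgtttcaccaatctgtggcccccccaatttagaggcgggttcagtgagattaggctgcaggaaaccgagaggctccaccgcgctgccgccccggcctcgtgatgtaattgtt
RefSeq promoter windows were matched for 24 of the 32 genes, and not for TFF1, TFF3, GREB1, ADCY9, RERG, FKBP4, CCN5 and SGK3. The core motif, searched on both strands, was found before at least 1 start of 8 of the 24 genes, against 37.7% of all genes in the table of promoters. The full palindrome GGTCANNNTGACC, which contains the core on both strands, was found for 0 of the 24 and for 0.0513% of all genes. The genes with a core motif were PDZK1, KCNK5, AGR3, CXCL12, SERPINA1, CA12, RARA and NRIP1, the last at a start other than the one shown. These are matches of letters in short windows, and binding of the receptor was not measured.

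The widest changes were among channels, transport proteins, scaffolds and enzymes, all 5 of which fell. Across all tested genes 37.6% fell and 37.4% rose, and no role was tested as a set. PDZK1, which codes for a PDZ scaffold that holds membrane transporters in place (ENSG00000174827, chromosome 1, positions 145670852 to 145708148), had 7.95 and 6.79 CPM in baicalein libraries 1 and 2, against 129 and 126 CPM in control 1 and 2. Its log2 fold change was -4.09 (SE 0.06, adjusted p = 5.10e-23), a 17.1-fold fall, and 62 of the 18369 tested genes had a more negative value. PDZK1P1, a pseudogene copy with which reads could be shared, had 48 and 19 counts in baicalein 1 and 2 and 38 and 25 in control 1 and 2, far below the 435 and 253 of PDZK1 in baicalein 1 and 2. ELOVL2, which codes for an elongase of polyunsaturated fatty acids (ENSG00000197977, chromosome 6, positions 10980759 to 11044314), had 0.292 and 0.295 CPM in the baicalein libraries and 4.32 and 4.08 CPM in the controls. That is 16 and 11 counts in baicalein 1 and 2, and its log2 fold change of -3.83 has a wider error (SE 0.21) than that of PDZK1. KCNK5, a potassium leak channel gene (ENSG00000164626, chromosome 6, positions 39188973 to 39229450), had 2.32 and 1.99 CPM after baicalein, against 14.5 and 16.9 CPM in controls. CA12, which codes for a carbonic anhydrase of the cell surface (ENSG00000074410, chromosome 15, positions 63321378 to 63382161), was among the more abundant of the group and had 148 and 143 CPM in baicalein 1 and 2, against 737 and 731 CPM in control 1 and 2. For each of these 4 genes both baicalein libraries lay far below both controls, with log2 fold changes of -2.85 (SE 0.11) for KCNK5 and -2.34 (SE 0.04) for CA12. NHERF1 codes for another PDZ scaffold and was, per exon length, the most abundant of the 32 genes in controls. It had 579.7 and 563 CPM in the baicalein libraries, against 1022 and 1092 CPM in controls (log2 fold change -0.89, SE 0.04).

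Every one of the 8 genes for secreted proteins fell, 5 of them at least 2-fold. Among all tested genes 37.6% fell, and 15.2% fell at least 2-fold. The chemokine gene CXCL12 (ENSG00000107562, chromosome 10, positions 44370165 to 44386493) had 51.9 and 46.3 CPM in baicalein 1 and 2, against 186 and 175 CPM in control 1 and 2 (log2 fold change -1.88, SE 0.05, adjusted p = 5.84e-19). OLFM1, which codes for a secreted olfactomedin glycoprotein (ENSG00000130558, chromosome 9, positions 135075422 to 135121179), had 81.5 and 78.1 CPM after baicalein and 259.7 and 248 CPM in controls (-1.67 on the log2 scale, SE 0.05). IGFBP4, whose product binds insulin-like growth factors, had 317 and 317 CPM in baicalein libraries, against 752 and 791 CPM in controls (-1.28, SE 0.04). In all 3 genes the libraries of a group lay close together and the groups far apart. The trefoil factor genes are classic estrogen targets whose products protect mucosal surfaces. TFF3 (ENSG00000160180, chromosome 21, positions 42311667 to 42315651) had 9.43 and 9.66 CPM in baicalein 1 and 2, against 28.7 and 28.8 CPM in controls, with a log2 fold change of -1.59 (SE 0.07). TFF1 (ENSG00000160182, chromosome 21, positions 42362282 to 42366594) had 32 and 14 counts, or 0.585 and 0.376 CPM, in baicalein 1 and 2, against 66 and 64 counts, or 1.40 and 1.36 CPM, in control 1 and 2. Its log2 fold change of -1.47 (SE 0.27, adjusted p = 3.33e-05) is the least precise of the 32, with values from -1.86 without baicalein 1 to -1.22 without baicalein 2. STC2, which codes for the glycoprotein stanniocalcin, was the most abundant of the secreted group in CPM and averaged 929 ± 13.8 CPM in baicalein libraries and 1665 ± 46.5 CPM in controls (SD, n = 2 libraries each, as for the means below). SERPINA1, the gene of alpha-1-antitrypsin, averaged 72.3 ± 0.494 and 104 ± 3.96 CPM in baicalein and control libraries. CCN5, a matricellular protein gene, averaged 0.674 ± 0.00375 and 1.16 ± 0.101 CPM in baicalein and control libraries, with 25 to 58 counts per library. Its call (log2 fold change -0.78, adjusted p = 0.00789) was lost in DESeq2 (adjusted p = 0.108) and without control 1 (adjusted p = 0.0565 in edgeR's test).

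**Figure D2:**
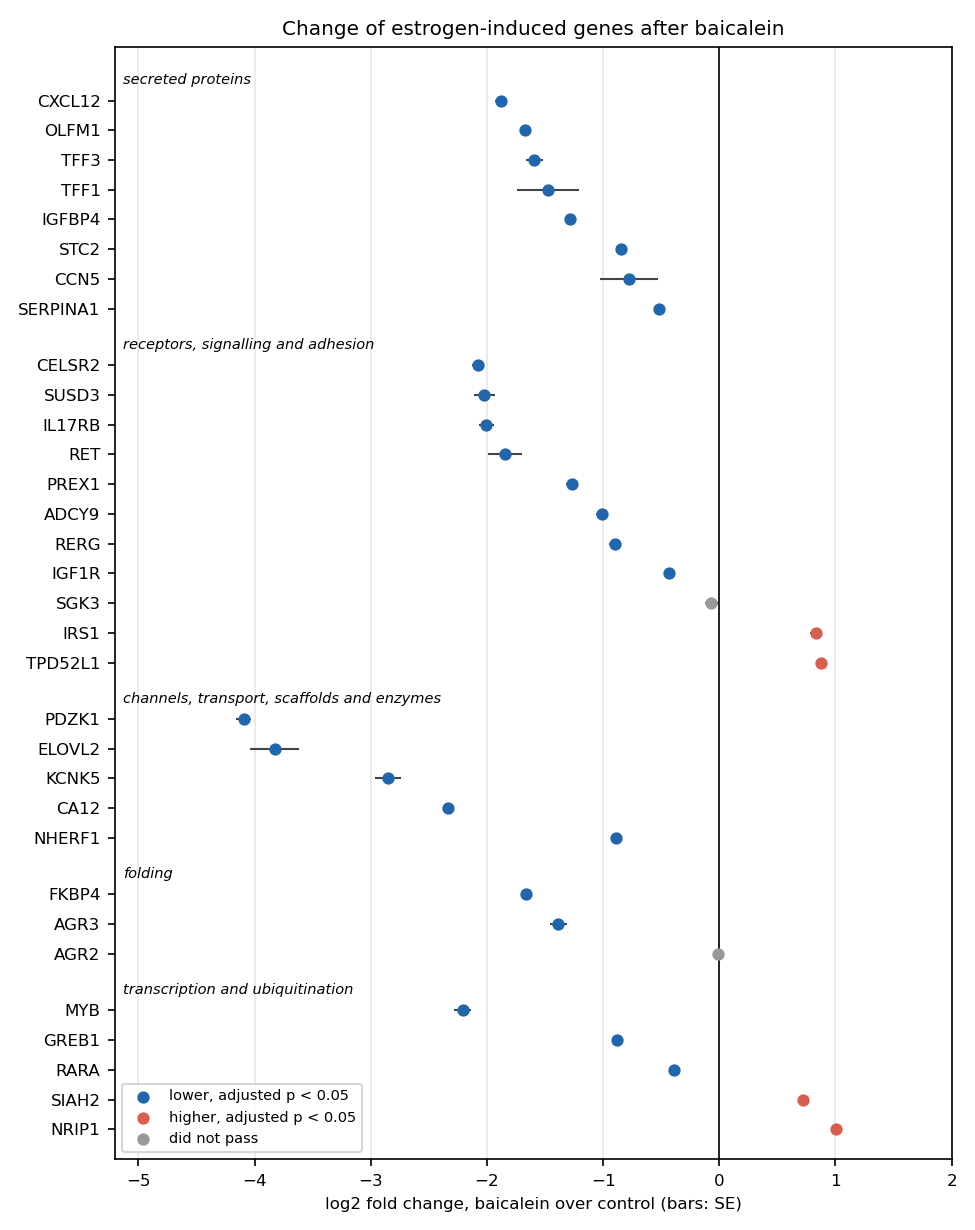
Log2 fold change of each of the 32 genes, baicalein over control, with the SE of the edgeR estimate as bars and the genes ordered by role. 26 genes lie left of 0 and passed the test, IRS1, TPD52L1, SIAH2 and NRIP1 lie right of it and passed, and SGK3 and AGR2 did not pass.

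Genes for receptors, signalling and adhesion were mixed, with 8 of 11 lower, 2 higher and 1 that did not pass. Of all tested genes 37.6% were lower and 37.4% higher. CELSR2, an atypical cadherin gene (ENSG00000143126, chromosome 1, positions 109250019 to 109275750), had 37.6 and 36.9 CPM in baicalein 1 and 2, against 160.3 and 155 CPM in control 1 and 2 (log2 fold change -2.08, SE 0.05). IL17RB, which codes for a receptor of the cytokine interleukin 25, had 11.8 and 11.2 CPM after baicalein and 45.4 and 47.3 CPM in controls (-2.01, SE 0.06). SUSD3, a membrane protein gene with a sushi domain, had 4.64 and 4.21 CPM in the baicalein libraries, against 18.2 and 17.99 CPM in controls (-2.02, SE 0.09). These 3 genes fell by similar factors, between 4.01-fold and 4.23-fold. RET, the receptor tyrosine kinase of the GDNF family ligands, was low throughout, at 1.28 and 1.45 CPM in baicalein 1 and 2 and 4.87 and 4.85 CPM in control 1 and 2 (-1.84, SE 0.15). PREX1, which codes for an exchange factor that activates the GTPase RAC, had 116 and 117 CPM in baicalein libraries, against 271 and 290.2 CPM in controls (-1.27, SE 0.05). ADCY9, an adenylyl cyclase gene, had 43.6 and 45.6 CPM after baicalein and 91.0 and 88.4 CPM in controls, just past a 2-fold fall (-1.01, SE 0.05). It stayed lower but was under 2-fold with a filter of at least 50 counts in 2 libraries (-0.9997 on the log2 scale), without control 1 (-0.99) and without baicalein 1 (-0.97). RERG, a RAS-like growth inhibitor gene named for its regulation by estrogen, averaged 50.3 ± 1.44 CPM in baicalein libraries and 93.7 ± 2.77 CPM in controls.

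The genes of the insulin-like growth factor axis went in different directions. IGF1R, the receptor gene (ENSG00000140443, chromosome 15, positions 98648539 to 98964530), had 89.1 and 90.5 CPM in baicalein 1 and 2, against 118 and 125 CPM in control 1 and 2, a fall of 1.35-fold (-0.44 on the log2 scale, SE 0.04). IRS1, the adaptor that carries the receptor's signal (ENSG00000169047, chromosome 2, positions 226731317 to 226799759), had 60.8 and 58.9 CPM in the baicalein libraries, against 34.2 and 33.0 CPM in controls, a rise of 1.78-fold (0.83, SE 0.05, adjusted p = 1.35e-12). With IGFBP4 lower as well, 2 of these 3 genes fell and IRS1 rose. TPD52L1, of the tumour protein D52 family (ENSG00000111907, chromosome 6, positions 125119049 to 125264407), rose, with a mean of 187 ± 6.23 CPM in baicalein libraries and 102 ± 2.14 CPM in controls (0.87, SE 0.04). SGK3, a serine and threonine kinase gene, averaged 37.5 ± 0.0613 CPM in baicalein libraries and 39.3 ± 1.93 CPM in controls and did not pass (log2 fold change -0.07, SE 0.05, adjusted p = 0.265). Without control 2 it passed (adjusted p = 0.0368, log2 fold change -0.11).

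Of the folding genes, FKBP4 and AGR3 fell and AGR2 did not pass. FKBP4, which codes for an HSP90 cochaperone of steroid receptors (ENSG00000004478, chromosome 12, positions 2794953 to 2805423), had 205 and 206 CPM in baicalein 1 and 2, against 632 and 669.7 CPM in control 1 and 2 (-1.66, SE 0.04, adjusted p = 2.59e-19). AGR2 (ENSG00000106541, chromosome 7, positions 16791811 to 16833433) and AGR3 (ENSG00000173467, chromosome 7, positions 16859405 to 16881987) are neighbours on chromosome 7 on the same strand, with 26.0 kb between them, and both code for endoplasmic reticulum proteins of the disulfide isomerase family. AGR3 had 9.71 and 9.31 CPM in the baicalein libraries, against 25.7 and 24.1 CPM in controls (-1.39, SE 0.08, adjusted p = 1.36e-13). AGR2 had 513 and 518 CPM in baicalein 1 and 2, against 529.7 and 509 CPM in control 1 and 2, and its groups overlapped. Its log2 fold change was -0.01 (SE 0.04, adjusted p = 0.825).

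Regulators of transcription and of ubiquitination held 3 genes that fell and 2 that rose, where 37.6% and 37.4% of all tested genes did. MYB, a transcription factor gene (ENSG00000118513, chromosome 6, positions 135181315 to 135219173), had 8.04 and 7.09 CPM in baicalein 1 and 2, against 35.6 and 34.9 CPM in control 1 and 2 (-2.21, SE 0.07, adjusted p = 1.85e-17). GREB1 (ENSG00000196208, chromosome 2, positions 11482341 to 11642788), which codes for a cofactor of the estrogen receptor, averaged 303 ± 6.55 CPM in baicalein libraries and 560.1 ± 1.92 CPM in controls, a 1.85-fold fall. RARA, the retinoic acid receptor alpha gene, averaged 109 ± 5.18 CPM after baicalein and 143 ± 8.31 CPM in controls and fell 1.31-fold, the smallest fall of the 26. NRIP1 (ENSG00000180530, chromosome 21, positions 14961235 to 15065936), which codes for a corepressor that binds the estrogen receptor, had 123 and 127 CPM in baicalein 1 and 2, against 62.7 and 61.7 CPM in control 1 and 2. Its log2 fold change of 1.005 (SE 0.04, adjusted p = 2.31e-15) was the largest rise of the 32 and sits at the 2-fold line, which it missed under upper quartile scaling, scaling by library totals, no filter on low counts, and without control 2 or without baicalein 2. SIAH2, which codes for a ubiquitin ligase, averaged 192 ± 0.443 CPM in baicalein libraries and 117 ± 1.46 CPM in controls (0.72, SE 0.04). SIAH2-AS1, whose exons overlap those of SIAH2 on the opposite strand, had 2.74 and 2.93 CPM in baicalein 1 and 2 and 1.503 and 1.68 CPM in control 1 and 2. Such overlaps were found for 8 of the 32 genes (FKBP4, IL17RB, MYB, NHERF1, NRIP1, RARA, SIAH2 and TPD52L1). They came to 99 to 847 bases per gene, added over all genes that overlap it on the opposite strand. The sources used here do not say whether reads were counted by strand. On the same strand, exons of SGK3 overlapped those of C8orf44 by 391 bases. Those of NRIP1 overlapped AF127577.4 by 87 bases, and those of NHERF1 overlapped MIR3615 by 48 bases. Counting by strand would not separate these same-strand overlaps.

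Related genes were also compared within each library, where the ratio of their counts per exon length does not depend on the scaling between libraries. AGR3 stood at 0.0464 and 0.0441 of AGR2 in baicalein 1 and 2, against 0.119 and 0.116 in control 1 and 2. PDZK1 stood at 0.0128 and 0.0113 of NHERF1 in baicalein 1 and 2, against 0.117 and 0.108 in the controls. For IGF1R over IRS1 the ratio was 1.05 and 1.10 in baicalein 1 and 2, against 2.46 and 2.71 in the controls. In all 3 pairs the groups did not overlap, and the mean log2 ratio differed by -1.38, -3.23 and -1.27 between baicalein and control. For the CPM of single genes, both baicalein libraries lay below both controls in 43.5% of all tested genes and above them in 43.4%. The ratios use the same counts as the fold changes above, so they are not separate evidence. TFF1 over TFF3 was 0.131 and 0.0824 in baicalein 1 and 2, on either side of the 0.103 and 0.100 in control 1 and 2, a difference of 0.03 on the log2 scale that turned to -0.30 without baicalein 1. With 2 libraries a group, the exact two-sided permutation test cannot go below p = 0.333, and the 4 pairs gave p = 0.333, 0.333, 0.333 and 1.0 (adjusted over the 4 pairs, 0.444 for the first 3). Genes of the group that are neighbours are also shown side by side. TFF3 and TFF1, with 46.6 kb between them on chromosome 21, had -1.59 and -1.47, whereas IGFBP4 and RARA, with 85.8 kb between them on chromosome 17, had -1.28 and -0.39.

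**Figure D3:**
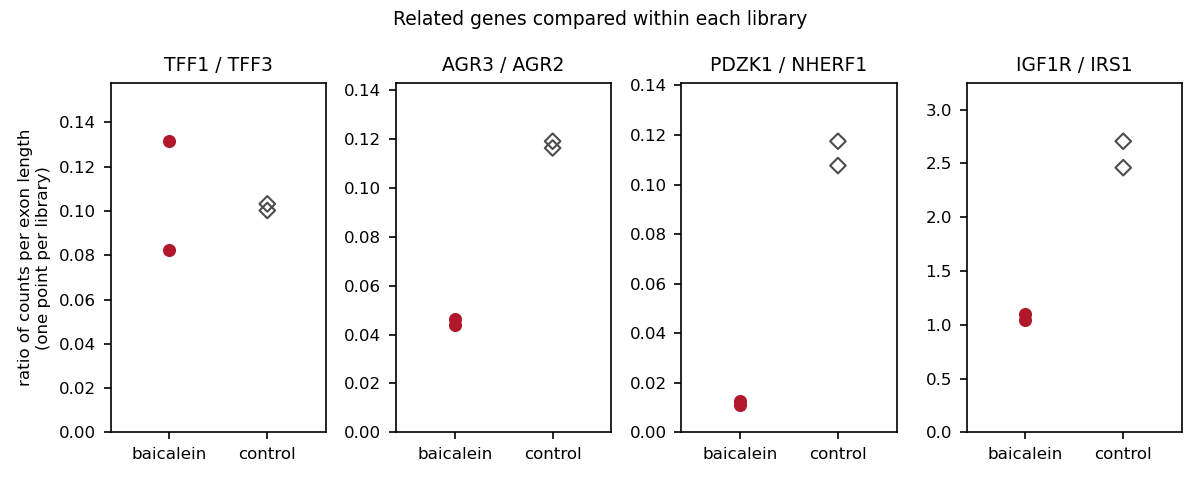
Ratio of counts per exon length of 2 related genes within each library (linear axes from 0), baicalein libraries on the left and control libraries on the right of each panel. The ratios of AGR3 to AGR2, PDZK1 to NHERF1 and IGF1R to IRS1 are lower in both baicalein libraries, and those of TFF1 to TFF3 overlap.

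The 32 genes covered a wide range of levels. In controls, levels per exon length, given as TPM (counts per exon length, scaled to the same sum in every library), averaged 1620.4 for NHERF1, 1244 for IGFBP4, 964 for STC2 and 648 for AGR2 at the top. At the bottom were CCN5 with 0.824, RET with 2.50, ELOVL2 with 3.73 and TFF1 with 8.88 TPM. Spearman's rho between control TPM and log2 fold change was 0.039 over the 32 genes, which share the same libraries, and -0.134 over 17878 tested genes with a length. The control counts enter both quantities, so error in them alone pushes rho toward negative values, and neither rho was tested.

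**Figure D4:**
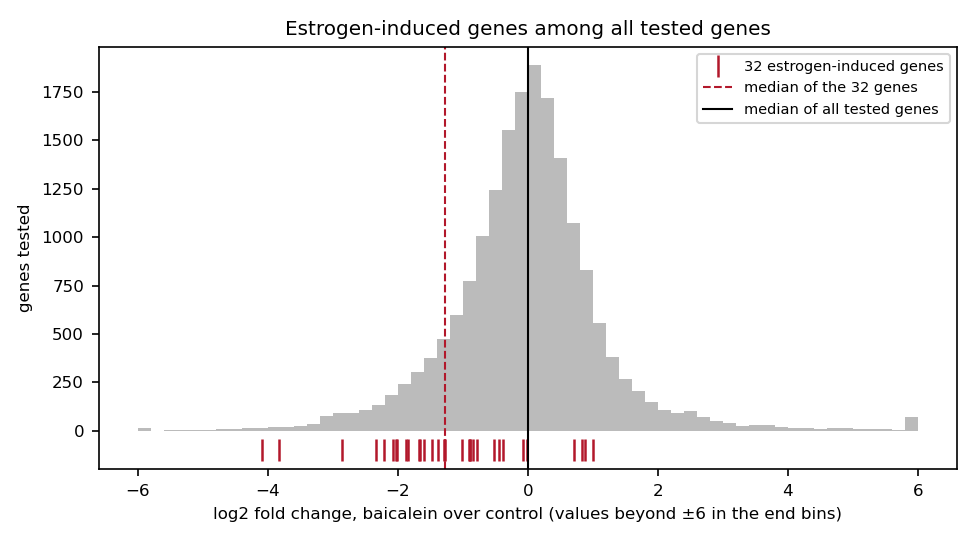
Histogram of the log2 fold change of all 18369 tested genes (grey, number of genes per bin), with the 32 estrogen-induced genes as red marks below. The dashed line is the median of the 32 genes, -1.28, and the solid line the median of all tested genes, 0.0017.

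The regulators of the group changed as well. ESR1 (ENSG00000091831, chromosome 6, positions 151656691 to 152129619) had 39.2 and 37.8 CPM in baicalein 1 and 2, against 183 and 171 CPM in control 1 and 2 (log2 fold change -2.20, SE 0.05); it fell, as did 26 of the 32 genes. Of 9 tested receptor, pioneer factor and coregulator genes 6 fell and 2 rose (median log2 fold change -1.02). The share that fell was 66.7%, against 37.6% of all tested genes, and 37.4% of all tested genes rose. The 6 include PGR, which is also counted in the further list below. The lineage factor gene GATA3 averaged 393 ± 29.6 CPM in baicalein libraries and 1098 ± 50.9 CPM in controls, and TFAP2C, another factor of luminal cells, 77.9 ± 2.91 and 158 ± 3.04 CPM. The coactivator gene NCOA3 rose, with 282 ± 5.66 CPM after baicalein and 110.0 ± 0.374 CPM in controls. The 1 that did not pass was ESR2, the gene of estrogen receptor beta, near 1 CPM (log2 fold change -0.49, SE 0.25, adjusted p = 0.0773).

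A further list of 30 genes known to respond to estrogen, none of them among the 32, had 29 tested genes. Of these 19 fell, 6 rose and 4 did not pass (median log2 fold change -0.77). The share that fell was 65.5%, against 37.6% of all tested genes, and 37.4% of all tested genes rose. This list too was chosen with earlier results of these data known. PGR, the progesterone receptor gene and a classic target (ENSG00000082175, chromosome 11, positions 101029624 to 101130524), had 113 and 106 CPM in baicalein 1 and 2, against 927 and 894 CPM in control 1 and 2 (-3.05, SE 0.05). The prostaglandin synthase gene PTGES averaged 13.0 ± 0.618 CPM in baicalein libraries and 98.1 ± 0.443 CPM in controls, RAPGEFL1 41.5 ± 1.5004 and 216 ± 4.16 CPM, and ABAT, which codes for the transaminase of the transmitter GABA, 13.4 ± 1.74 and 83.2 ± 2.298 CPM. On the other side, AREG, the gene of the EGFR ligand amphiregulin, averaged 387 ± 10.3 CPM in baicalein libraries and 94.4 ± 1.02 CPM in controls. TIPARP, which is also a target of the aryl hydrocarbon receptor, averaged 127 ± 3.62 and 28.9 ± 1.48 CPM in baicalein and control libraries. Of 9 tested genes known to be lowered by estrogen, 5 rose and 4 fell (median 0.48). TP53INP1 (1.39, SE 0.05), EGFR (1.26, SE 0.05), CCNG2 (0.98, SE 0.05), EFNA1 (0.72) and BLNK (0.48) had positive log2 fold changes and TGFB3 a negative one (-1.35, SE 0.05). The share of the 9 that fell was 44.4%, near the 37.6% of all tested genes. Of the 9, 5 rose, where 37.4% of all tested genes rose. The test against a 1.5-fold change called 1 of the 9 lower and 4 higher, where 19.5% and 16.8% of all tested genes were called.

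**Figure D5:**
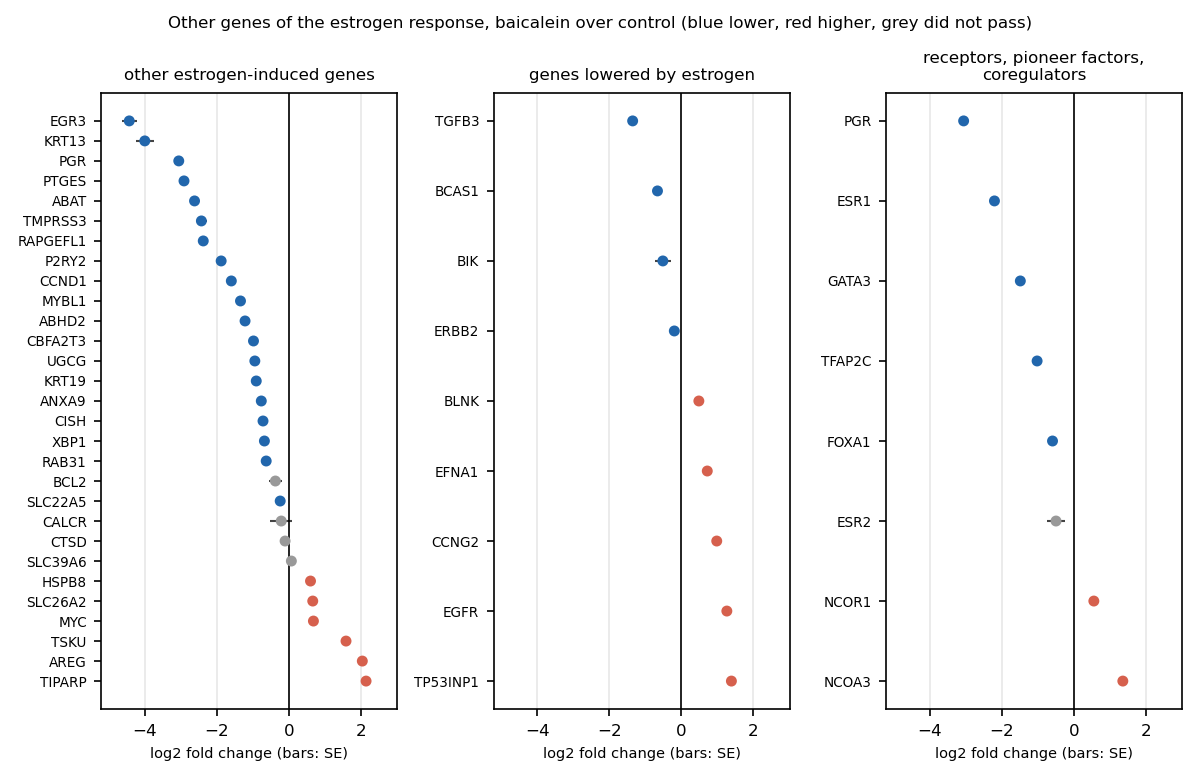
Log2 fold change, baicalein over control, with SE as bars, of genes of 3 further lists: other estrogen-induced genes, genes lowered by estrogen, and receptors, pioneer factors and coregulators. Blue points fell, red points rose and grey points did not pass; PGR is in both the left and the right panel.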

How the data were processed

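Poly(A) RNA of T47D cells was sequenced in 2 baicalein-treated and 2 control libraries. The deposited table holds whole-number read counts per gene made by the authors, with 20515 genes and 38597207 to 56732569 counts per library. Per the submitters' processing notes, the software included STAR 2.7.8a, RSEM 1.3.3, cutadapt 2.3, DESeq2 1.34 and FastQC 0.11.8, with build GRCh38. The sources used here do not state the annotation release or strand setting. Columns of other samples numbered 0.

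Differences were tested by the robust quasi-likelihood method of edgeR 4.0.16 (R 4.3.3) with TMM factors. The filter filterByExpr (at least 10 counts, total at least 15) kept 18369 genes and left out 2146. P-values were adjusted by Benjamini-Hochberg over all tested genes, and genes under 0.05 were called. The biological coefficient of variation was 0.0383. At a floor of 3 counts a library detects 0.0548 to 0.0805 CPM, for counting error only. SE is the log2 fold change divided by the square root of the F statistic. Levels per length used GENCODE 29 exon lengths on GRCh38, and gene positions come from the same annotation; 19849 identifiers matched a length. Promoters came from RefSeq. The test was also run on simulated data in which few genes changed, so that run cannot speak for a change as broad as the one here. Alternatives were RLE, upper quartile and library total scaling, no filter, at least 50 counts in 2 libraries, DESeq2 1.42.0, limma-voom (limma 3.58.1), a 1.5-fold null hypothesis, an adjusted p under 0.01, a replicate block and leaving out each library. Replicate numbers were not taken to pair the libraries: same-numbered libraries deviated with r = 0.0243 over 13147 genes. Chi-square tests of the replicate counts averaged 2.43 (median 0.702) over 17862 genes for baicalein and 9.61 (median 1.385) over 17891 for control. The means were above sampling noise, so each library counted as 1 sample.

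Genes were named by a fixed rule: members with at least a 2-fold change and both genes of each pair with values in every library, other members with means or calls, and up to 6 genes of each further list with the smallest adjusted p, with ESR1 always. In the list of receptors and coregulators 1 gene that the counts include is not reported here. ESR2, PDZK1P1, SIAH2-AS1 and the single cell type markers were named after their values were seen. The members and lists were chosen with earlier results of these data known.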

Additional observations from a re-analysis of the deposited data

How the results depend on the processing

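With 2 libraries a group, each value rests on few samples. The counts of genes called higher and lower, the median of the 32 genes and each gene's direction were recomputed under every alternative. The 4 genes that rose were called in each of them. Of the 32 genes, 25 were called lower in DESeq2, 28 with scaling by library totals and 22 in the test against a 1.5-fold change, where SERPINA1, CCN5, IGF1R and RARA were no longer called, and 25 to 27 when 1 library was left out. Scaling by library totals moved the median of all genes to -0.10, and there SGK3 (log2 fold change -0.17, adjusted p = 0.00884 in edgeR) and AGR2 (-0.11, adjusted p = 0.0166) were called. The number lower by at least 2-fold was 17 to 19 over the alternatives. The number of genes higher by at least 2-fold, 1 of 32, was 0 with upper quartile scaling, 0 with library totals, 0 with no filter, and 0 to 1 when 1 library was left out. The median log2 fold change of the 32 genes was -1.31 with upper quartile scaling, -1.38 with library totals, and -1.32 to -1.23 when 1 library was left out, wider than its replicate SD of 0.0159. AGR2 turned positive without control 1 (0.016) and without baicalein 1 (0.0027), within -0.034 to 0.016 over all such fits. The log2 difference of the TFF1 to TFF3 ratio was -0.30 without baicalein 1 and 0.37 without baicalein 2. Of the genes lowered by estrogen, 1 was called lower in the test against a 1.5-fold change, where all 4 had been called before. A fit with the replicate number as a block called 26 of the 32 genes lower and 4 higher, with a median of -1.28, and changed no call among them; among genes lowered by estrogen it called 3 lower and among the other estrogen-induced genes 20 lower. The cause of these shifts was not tested.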
